A study of Arabidopsis thaliana with 16 samples.

Results

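Developmental age was compared between exosome mutant seedlings and wild type in 8 of the 16 total RNA libraries of an Arabidopsis seed-to-seedling series. The 8 libraries are all those of 4 groups with 2 libraries each. L26 and L57 are Col-0 after 26 h and 57 h of light, at about the time of radicle emergence and at the stage of open green cotyledons. The other groups are the mutants hen2-4 and rrp4-2, sampled at the L57 time-point after 57 h of light. Whether they were harvested in the same batch as L57 is not stated. All were grown in shaken liquid medium under continuous light at a constant temperature after cold stratification, and it is not stated whether the replicates of a group came from different flasks. The p-values therefore cover the spread between these libraries, which may be technical. The remaining 8 libraries are the earlier Col-0 stages, from dry (DS) through stratified (S24, S72) to 6 h of light (L6). They shared in the estimate of the spread and gave the earlier intervals used below. The question was whether the mutants looked younger, that is closer to L26, or older than Col-0 of the same time in the light.

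The nuclear RNA exosome is a complex that trims and degrades RNA from its 3′ end. HEN2 is an RNA helicase of the nucleoplasm that hands transcripts to it, and RRP4 is a subunit of its core. In the absence of these factors, non-coding transcripts, snoRNA precursors and other short-lived RNAs accumulate. Between radicle emergence and the green seedling, Arabidopsis consumes its seed oil and storage protein, builds photosynthetic membranes in the cotyledons, and differentiates root hairs and vascular tissue.

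Estimated counts of transcripts were summed for each nuclear locus, and 25905 of 37390 loci passed the filter on low counts. The nuclear total was 56574223 and 63449079 counts in L57 against 124711223 to 138638659 in the mutants, so that sequencing depth and genotype cannot be told apart. Chloroplast transcripts took 10.4% and 11.3% of all counts at L26 and 41.2% and 43.4% at L57. The shares were 47.0% and 46.6% with hen2-4 and 47.5% and 49.7% with rrp4-2. Nuclear rRNA took 2.35% of the nuclear counts in L57 replicate 2 and 0.0517% in replicate 1. Levels are given as CPM, the count of a locus scaled to the TMM-adjusted nuclear total of its library. Those of different genes are not per length and were not compared with each other.

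The targeted genes were examined first. The level of HEN2 was 56.9 and 56.3 CPM at L26, then 24.7 and 24.4 at L57, 107 and 104 with hen2-4 and 31.2 and 25.6 with rrp4-2, so that the libraries labelled hen2-4 stood above all others (log2 2.102 ± 0.09 (SE), edgeR adjusted p = 1.29e-08 against L57). A locus total counts every exon and does not tell whether a complete transcript was made, so this level is no check of the loss of HEN2. The RRP4 level was 30.0 and 28.9 CPM at L26, then 8.71 and 7.67 at L57, 8.6 and 9.59 with hen2-4 and 10.1 and 7.39 with rrp4-2, and the rrp4-2 libraries lay across the L57 libraries (log2 0.10 ± 0.13 (SE), edgeR adjusted p = 0.67). The rrp4-2 allele is a single base change, which a transcript level cannot check. All 14 genes of the exosome and its cofactors fell from L26 to L57, with a median log2 fold change of -1.42. In the pooled mutants 3 of them were higher and 4 lower, where 14.8% and 15.9% of all loci were called. Without L57 replicate 1, without hen2-4 replicate 1 and without rrp4-2 replicate 2 the lower count became 1, 1 and 2. SOP1 (AT1G21580), a zinc finger protein of the nuclear exosome pathway that was named here after its values were seen, reached 37.9 and 39.2 CPM in L57, 104 and 111 with hen2-4 and 111 and 100.1 with rrp4-2 (log2 1.46 ± 0.15 (SE), edgeR adjusted p = 1.12e-05). Both mutants exceeded L57 without overlap.

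Each library was placed on the line from the mean of L26 (position 0) to the mean of L57 (position 1), by projecting its log2 CPM over all tested loci. L57 libraries were placed on an axis built without them, and mutants at the mean of their positions on the axes built with each L57 library. The L26 libraries stood at 0.0163 and 0.0516 and the L57 libraries at 0.952 and 0.974. For hen2-4 the positions were 0.965 and 0.96, and for rrp4-2 0.913 and 0.936. The hen2-4 libraries lay between the L57 libraries, and the rrp4-2 libraries lay below both. The 4 mutant libraries had a mean of 0.944 ± 0.0239 (SD, n = 4) and L57 a mean of 0.963 ± 0.0156 (SD, n = 2). The difference of -0.0197 was not called (exact permutation test, two-sided, p = 0.4, where 4 against 2 libraries allow no p below 0.133). This test takes the libraries of both mutants as alike, and their SD includes the gap between hen2-4 (mean 0.963, SD 0.00322) and rrp4-2 (mean 0.925, SD 0.0163). The difference from L57 was -0.000725 for hen2-4 and -0.0387 for rrp4-2, and 2 against 2 libraries allow no p below 0.333. With each locus scaled by its SD over the stages, the pooled difference turned to 0.0238, that of hen2-4 to 0.0452 and that of rrp4-2 to 0.00247. The direction of the hen2-4 difference also turned with only protein-coding loci, 0.00775. The pooled difference was -0.00936 without rrp4-2 replicate 1, -0.00173 over loci with at least 10 CPM, -0.0123 over protein-coding loci and -0.037 on an axis from L6 to L57.

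**Figure D1:**
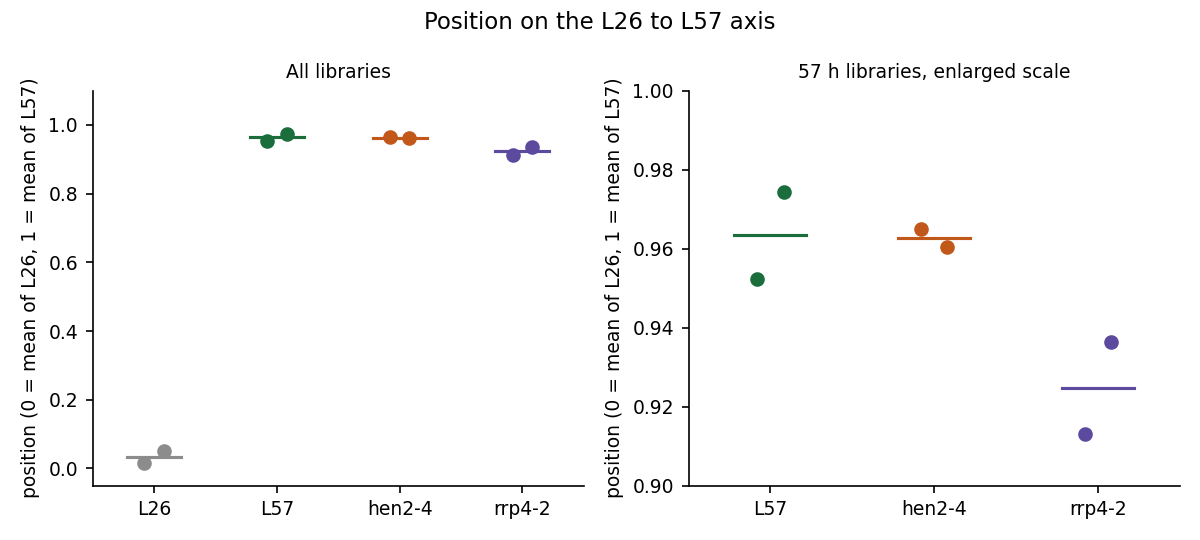
Position of each library (points; lines, mean of 2 libraries) on the axis from L26 (0) to L57 (1) over all tested loci, with the 57 h libraries on an enlarged scale at the right that does not start at 0. The hen2-4 libraries at 0.965 and 0.96 lie between the L57 libraries at 0.952 and 0.974, and the rrp4-2 libraries at 0.913 and 0.936 lie below them.

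Almost none of the distance between mutants and L57 lay along this axis. The root mean square log2 distance to a single L57 library, averaged over both, was 0.849 to 0.898 over the 4 mutant libraries. It was 0.573 between the L57 replicates and 2.12 to 2.24 from the mutants to L26. The axis carried 0.0221% and 0.0205% of the squared distance from L57 in hen2-4, and 1.58% and 0.46% in rrp4-2. When the axis was drawn from L6 instead of L26, the L57 libraries stood at 0.974 and 0.984, those of hen2-4 at 0.955 and 0.948 and those of rrp4-2 at 0.925 and 0.94. On that longer axis all 4 mutant libraries lay below both L57 libraries, a difference that 4 against 2 libraries cannot bring under a p of 0.133.

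Locus by locus, 7951 loci (30.7%) differed between the pooled mutants and L57, 3836 higher (14.8%) and 4115 lower (15.9%), at an edgeR adjusted p under 0.05. The count was 4663 without L57 replicate 1 and 4889 without L57 replicate 2. Taken singly, hen2-4 differed from L57 at 7490 loci (28.9%) and rrp4-2 at 6523 (25.2%). For hen2-4 the count was 4723 without L57 replicate 1 and 4955 without hen2-4 replicate 2. For rrp4-2 it was 3932 and 3795 without L57 replicates 1 and 2, and 4153 without rrp4-2 replicate 1. With chloroplast, mitochondrial and de novo transcripts in the scaling, 62.6% of the called loci were higher in the pooled mutants, 61.6% in hen2-4 and 64.3% in rrp4-2, against 48.2%, 50.8% and 47.5% with nuclear loci alone. The passage from L26 to L57 changed 17746 loci (68.5%), 9015 higher (34.8%) and 8731 lower (33.7%). Of these, 6159 rose and 4562 fell by a log2 fold change of at least 1, together 41.4% of the loci tested, and are called age loci below. Taken one direction at a time, 14.7% of loci were higher and 14.2% lower in hen2-4, and 12.0% higher and 13.2% lower in rrp4-2. All 4 mutant libraries lay below both L57 libraries at 23.4% of the loci and above both at 24.6%.

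Since L57 enters both comparisons, an error in its libraries alone would make the mutants look younger. The age loci were therefore called with one L57 library and the mutants compared with the other, both ways. A locus called both times has each L57 library in both of its calls. Only the shares for a single order, given below, keep the L57 libraries apart. Of 5491 loci called as rising both times, 507 (9.23%) were lower in the mutants both times and 279 (5.08%) higher. Over all tested loci these shares were 7.57% and 6.37%. Of 3932 falling loci, 422 (10.7%) were lower and 359 (9.13%) higher. Lower rising loci and higher falling loci are the younger side, and both of the other sets are the older side. These counts moved with the scaling and with the L57 library. With chloroplast, mitochondrial and de novo transcripts in the fit, 350 rising loci were lower and 321 higher, and 351 falling loci were lower and 558 higher. With age loci called from L57 replicate 1 and the mutants compared with replicate 2, 12.8% were lower and 5.82% higher among rising loci, and 11.8% were lower and 13.3% higher among falling loci. The other way round, 10.3% were lower and 8.64% higher among rising loci, and 18.7% were lower and 10.6% higher among falling loci. The falling loci split by kind of transcript. Among 3551 protein-coding loci, 417 were lower and 192 higher. Among 381 loci that do not code for a protein, 5 were lower and 167 (43.8%) higher. With age called from L57 replicate 1 alone, 13.0% of falling protein-coding loci were lower and 9.84% higher. From replicate 2 alone these shares were 20.6% and 7.07%. Of the falling loci without a protein, 44.0% and 40.9% were higher in these single orders. With DESeq2 size factors the count of rising loci that were lower was 805.

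The same pair of comparisons gave each age locus a position of its own, from 0 at its L26 level to 1 at its L57 level. Over all age loci the median was 0.993 for the left-out L57 library, 1.00 in hen2-4 and 0.962 in rrp4-2. For rising protein-coding loci it was 0.995 for the left-out L57 library, 0.986 in hen2-4 and 0.959 in rrp4-2, and for falling ones 0.991 for the left-out L57 library, 1.05 in hen2-4 and 0.981 in rrp4-2. A value above 1 means that the level had moved beyond that of L57. Falling loci without a protein had medians of 0.432 in hen2-4 and 0.483 in rrp4-2, close to midway between L26 and L57. Rising loci without a protein had a median of 0.958 for the left-out L57 library, 1.15 in hen2-4 and 1.12 in rrp4-2. Root hair genes had 0.784 and 0.673, chlorophyll synthesis genes 0.791 and 0.759, and seed storage and oil body genes 1.36 and 1.07. These medians are descriptions and were not tested.

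Earlier stages gave classes of loci that do not use L57 at all. From L6 to L26, 4619 loci (17.8%) rose and 3167 (12.2%) fell by a log2 fold change of at least 1 (edgeR adjusted p under 0.05). Of the rising loci, 1135 (24.6%) were lower in the pooled mutants than in L57 and 250 (5.41%) higher, with a median log2 fold change of -0.15. Of the falling loci, 271 (8.56%) were lower and 1009 (31.9%) higher, with a median of 0.25. The background was 15.9% lower and 14.8% higher, with a median of 0.01. The shares held for each mutant, at 21.9% lower among rising and 31.7% higher among falling loci in hen2-4, and 20.9% and 26.9% in rrp4-2. Split by kind of transcript, which was done after these counts were seen, 25.1% of the rising protein-coding loci were lower and 28.6% of the falling ones higher, while 53.1% of the falling loci without a protein were higher. Of the rising loci without a protein, 7.59% were lower and 17.9% higher, with a median log2 fold change of 0.19. Without L57 replicate 2 the medians were -0.09 for rising and 0.35 for falling loci.

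**Figure D2:**
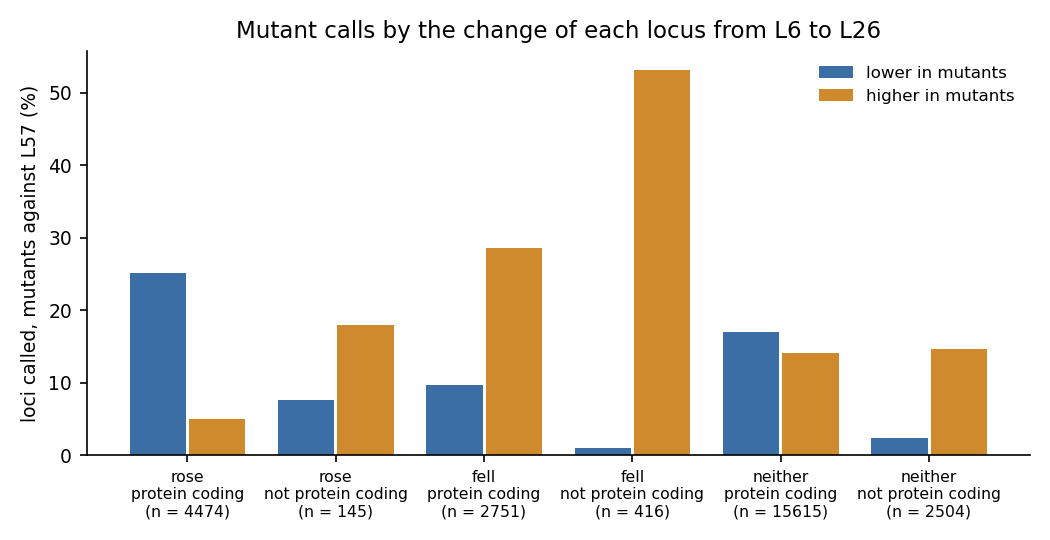
Share of loci (%, vertical axis) called lower (blue) or higher (orange) in the pooled mutants than in L57, grouped by whether the locus rose, fell or did neither from L6 to L26 and by whether it codes for a protein; n is the number of loci. More of the rising protein-coding loci were called lower than higher (25.1% against 5.01%) and more of the falling ones higher than lower (28.6% against 9.71%). Most were called neither way.

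The step of each mutant library from the L57 mean was then taken along each earlier interval, as a share of that interval. Each L57 library was measured from the other one. These steps were added after the classes had been seen. Along L6 to L26 the step was -0.0988 and -0.114 in hen2-4 and -0.0984 and -0.0916 in rrp4-2, while the L57 replicates lay 0.00491 apart. Every mutant library thus lay back towards L6 by more than the spread between the L57 replicates. Over protein-coding loci alone the steps were -0.0816 and -0.0963 in hen2-4 and -0.0823 and -0.0736 in rrp4-2. L6 and L26 were sequenced to a similar depth, but the mutants more deeply than L57. The part of depth in the L6 to L26 steps was not tested. Along S72 to L6 the steps were smaller, -0.0503 and -0.0572 in hen2-4 and -0.0331 and -0.0413 in rrp4-2, against 0.0144 between the L57 replicates. The intervals of stratification share S24, and the steps along both pointed towards it. Along S24 to S72 they were -0.0859 and -0.0896 in hen2-4 and -0.0846 and -0.0922 in rrp4-2. Along DS to S24 they were 0.0832 and 0.0839 in hen2-4 and 0.0764 and 0.0826 in rrp4-2. Over protein-coding loci alone these steps were -0.0487 and -0.0468 in hen2-4 and -0.0589 and -0.06 in rrp4-2 along S24 to S72, and 0.0352 and 0.0326 in hen2-4 and 0.0366 and 0.0403 in rrp4-2 along DS to S24. S24 and S72 belong with the mutants to the deeper libraries, and whether depth took part in these steps was not tested. S24 replicate 1 had 3216 loci without a count and replicate 2 had 8324, against 10616 to 13003 in the libraries of the other groups. The part of this in the stratification steps was not tested either.

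**Figure D3:**
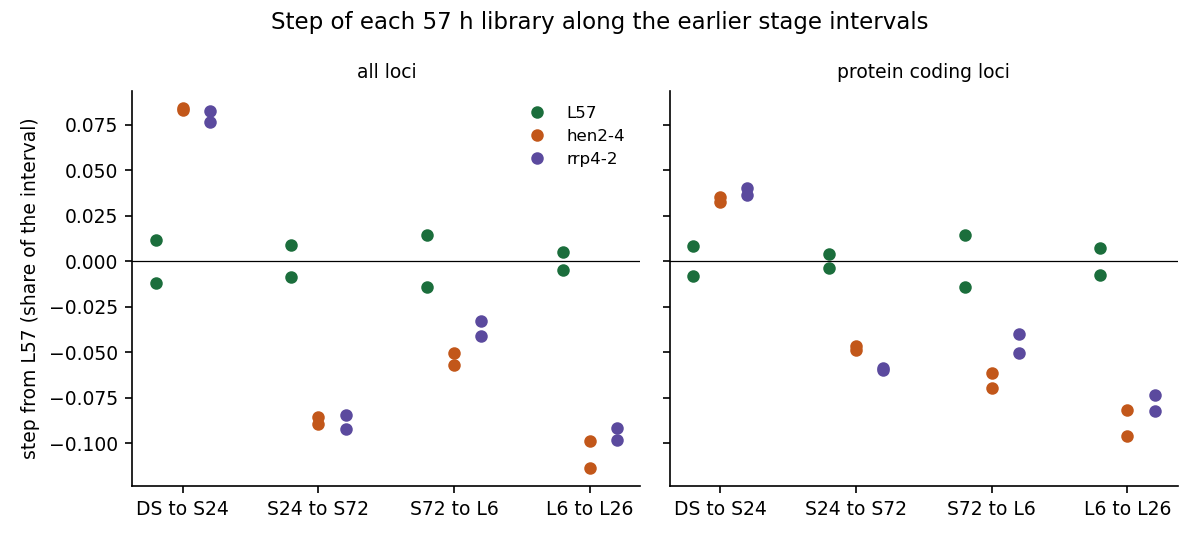
Step of each 57 h library (vertical axis, share of the interval) along each earlier stage interval, over all loci (left) and protein-coding loci (right). Mutant libraries are measured from the mean of L57, and each L57 library from the other one. All 4 mutant libraries lie below both L57 libraries along S24 to S72, S72 to L6 and L6 to L26, and above them along DS to S24.

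In rrp4-2, root hair genes had the largest median difference from L57 of the 23 gene lists. Root hairs grow out of single epidermal cells after the radicle has emerged, and of 12 genes of this program 11 rose from L26 to L57, with a median log2 fold change of 5.22. In the pooled mutants 11 of 12 were lower than in L57 and 0 higher, with a median of -1.33 (-1.12 in hen2-4 and -1.71 in rrp4-2). In 11 of them all 4 mutant libraries lay below both L57 libraries, against 23.4% of all loci. RHS13, a root hair specific wall protein, measured 1.27 and 1.1 CPM at L26, then 82.1 and 82.7 at L57, 30.6 and 38.3 with hen2-4 and 17.0 and 19.6 with rrp4-2 (log2 -1.71 ± 0.20 (SE), edgeR adjusted p = 0.000102). RHS19, a peroxidase of the same set, stood at 2.68 and 2.01 CPM at L26, then 103 and 102 at L57, 35.9 and 45.8 with hen2-4 and 22.3 and 23.8 with rrp4-2 (log2 -1.74 ± 0.21 (SE), edgeR adjusted p = 6.95e-05). Both stood far above their L26 levels in every mutant library and below L57 without overlap. PRP3, a proline-rich wall protein of root hairs, measured 13.0 and 13.7 CPM in L57, 5.68 and 7.94 with hen2-4 and 4.34 and 3.79 with rrp4-2 (log2 -1.35 ± 0.22 (SE), edgeR adjusted p = 0.000754). COW1, a phosphatidylinositol transfer protein needed for hair growth, reached 36.7 and 36.5 CPM in L57, 17.39 and 21.1 with hen2-4 and 11.1 and 11.4 with rrp4-2, and the expansin EXPA7 26.3 and 23.63 CPM in L57, 11.6 and 13.9 with hen2-4 and 8.26 and 9.35 with rrp4-2. Both were named after their values were seen. RHD6, the transcription factor that starts hair growth, was the exception in the pooled mutants. It fell from 14.8 and 14.2 CPM in L26 to 2.86 and 2.87 in L57. In hen2-4 it measured 2.53 and 2.89 and in rrp4-2 2.15 and 2.19 (pooled log2 -0.24 ± 0.11 (SE), edgeR adjusted p = 0.128). In rrp4-2 taken singly all 12 genes were called lower, RHD6 among them. For RHD6, which fell with age, lower is the older side. In whole seedlings, fewer root hair cells and less RNA in each of them cannot be told apart.

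Smaller differences were found in other differentiating tissues. Of 9 genes of the Casparian strip of the root endodermis, 8 rose from L26 to L57. All 9 had every mutant library below both L57 libraries, against 23.4% of all loci. Only 4 passed the test, with a median of -0.50 (-0.66 in hen2-4 and -0.39 in rrp4-2). That count was 1 without either L57 replicate, and 2 without L26 replicate 2, hen2-4 replicate 1, hen2-4 replicate 2 or rrp4-2 replicate 2, and with all features in the scaling. CASP1, which assembles the strip, had no count in either L26 library and reached 29.4 and 28.1 CPM in L57, 16.8 and 20.2 with hen2-4 and 20.7 and 25.0 with rrp4-2 (log2 -0.49 ± 0.16 (SE), edgeR adjusted p = 0.0492). ESB1, a dirigent protein of the strip that was named after its values were seen, measured 14.2 and 13.0 CPM in L57, 5.78 and 7.02 with hen2-4 and 9.23 and 6.32 with rrp4-2 (log2 -0.95 ± 0.19 (SE), edgeR adjusted p = 0.00236). Of 14 xylem and secondary wall genes, 11 rose with age and 1 was lower in the mutants, with a median of -0.39. XCP1, a peptidase of dying xylem cells, measured 22.6 and 22.2 CPM in L57, 11.8 and 11.2 with hen2-4 and 14.4 and 16.02 with rrp4-2, a difference that missed the threshold (log2 -0.76 ± 0.29 (SE), edgeR adjusted p = 0.0618). Its partner XCP2 measured 35.8 and 38.4 CPM in L57, 34.9 and 34.6 with hen2-4 and 33.3 and 34.8 with rrp4-2. Mitotic genes rose with age in 15 of 17, and 1 was higher and 0 lower in the mutants. SYP111, the syntaxin of the dividing cell plate, was 3.72 and 4.46 CPM in L26 and 31.5 and 33.1 CPM in L57, 29.3 and 26.0 with hen2-4 and 30.6 and 30.6 with rrp4-2 (log2 -0.15 ± 0.15 (SE), edgeR adjusted p = 0.497). Of 12 genes of the shoot apex and leaf primordia, 3 were higher and 0 lower (median 0.30), and the higher count was 1 without L57 replicate 1, without hen2-4 replicate 1 or without rrp4-2 replicate 2. KNAT2, a meristem homeobox gene also named after its values were seen, measured 2.22 and 2.27 CPM in L57, 3.94 and 3.91 with hen2-4 and 3.86 and 3.78 with rrp4-2 (log2 0.79 ± 0.11 (SE), edgeR adjusted p = 0.000161). Of 12 stomatal lineage genes 2 were lower, where 15.9% of all loci were lower, with a median of 0.04.

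Nuclear photosynthesis genes rose steeply with age, and many were lower in the mutants. Light-harvesting proteins bind chlorophyll around the photosystems, and 21 of 21 rose from L26 to L57 with a median log2 fold change of 6.28. In the mutants 9 were lower and 0 higher, with medians of -0.22 in hen2-4 and -0.59 in rrp4-2. LHCB2.2 measured 5.02 and 4.6 CPM at L26, then 1344 and 1629 at L57, 1053 and 1012 with hen2-4 and 576 and 597 with rrp4-2 (log2 -0.93 ± 0.17 (SE), edgeR adjusted p = 0.00121). All 4 mutant libraries lay below L57, and those of rrp4-2 were lowest. LHB1B1 lay above L57 in hen2-4 and lay below it in rrp4-2, at 1816 and 2145 CPM in L57, 2532 and 2377 with hen2-4 and 1303 and 1368 with rrp4-2, and the mutants differed from each other (log2 -0.88 ± 0.21 (SE), edgeR adjusted p = 0.0187). Of 28 photosystem and electron transport subunits 21 were lower in the pooled mutants, 13 in hen2-4 and 27 in rrp4-2, with medians of -0.23 in hen2-4 and -0.60 in rrp4-2. PSBQ-2, of the oxygen-evolving complex, measured 687 and 801 CPM in L57, 529 and 529.7 with hen2-4 and 377 and 420.3 with rrp4-2 (log2 -0.70 ± 0.11 (SE), edgeR adjusted p = 0.000427). PSAO, a subunit of photosystem I, measured 1186 and 1389 CPM in L57, 1384 and 1369 with hen2-4 and 857 and 883 with rrp4-2 (log2 -0.23 ± 0.14 (SE), edgeR adjusted p = 0.233). Of 10 genes of the Rubisco small subunits and the Calvin cycle, 4 were lower, with RBCS1B at 1643 and 1784 CPM in L57, 1061 and 1218 with hen2-4 and 1100.4 and 1214 with rrp4-2 (log2 -0.58 ± 0.14 (SE), edgeR adjusted p = 0.00647). The activase RCA measured 6970.2 and 7959 CPM in L57, 6560.3 and 6594 with hen2-4 and 6806 and 6491 with rrp4-2 (log2 -0.17 ± 0.09 (SE), edgeR adjusted p = 0.172). Without L57 replicate 2 the lower counts were 5 light-harvesting genes, 6 photosystem genes and 0 Calvin cycle genes. Transcripts of the chloroplast itself took a larger share of all counts in the mutants than in L57, and the part of this in the nuclear values was not tested. RBCS and LHCB1 genes have near-identical copies, between which estimated counts can be split.

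Chlorophyll synthesis genes were lower in both mutants by a similar median. Of 18 genes, 17 rose with age (median 1.76), and 15 were lower and 0 higher in the mutants, with medians of -0.50 in hen2-4 and -0.49 in rrp4-2. In 17 of 18 all 4 mutant libraries lay below both L57 libraries, against 23.4% of all loci. CH1, the oxygenase that makes chlorophyll b, measured 26.4 and 28.0 CPM at L26, then 282 and 320.5 at L57, 236 and 212 with hen2-4 and 219.6 and 209 with rrp4-2 (log2 -0.46 ± 0.07 (SE), edgeR adjusted p = 0.00048). G4, the chlorophyll synthase named after its values were seen, measured 154 and 161 CPM in L57, 85.9 and 88.0 with hen2-4 and 90.105 and 85.8 with rrp4-2 (log2 -0.85 ± 0.08 (SE), edgeR adjusted p = 5.27e-06), and HEMC, an early enzyme of the pathway named likewise, 446 and 484 CPM in L57, 259 and 261 with hen2-4 and 298 and 274 with rrp4-2 (log2 -0.77 ± 0.06 (SE), edgeR adjusted p = 1.93e-06). Both were lower in every mutant library. GUN5, a subunit of magnesium chelatase, measured 3912 and 4298 CPM in L57, 3475 and 3913 with hen2-4 and 4141 and 3966 with rrp4-2 and overlapped (log2 -0.09 ± 0.16 (SE), edgeR adjusted p = 0.767). Between the mutants 1 of the 18 genes was higher in rrp4-2 and 0 lower.

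**Figure D4:**
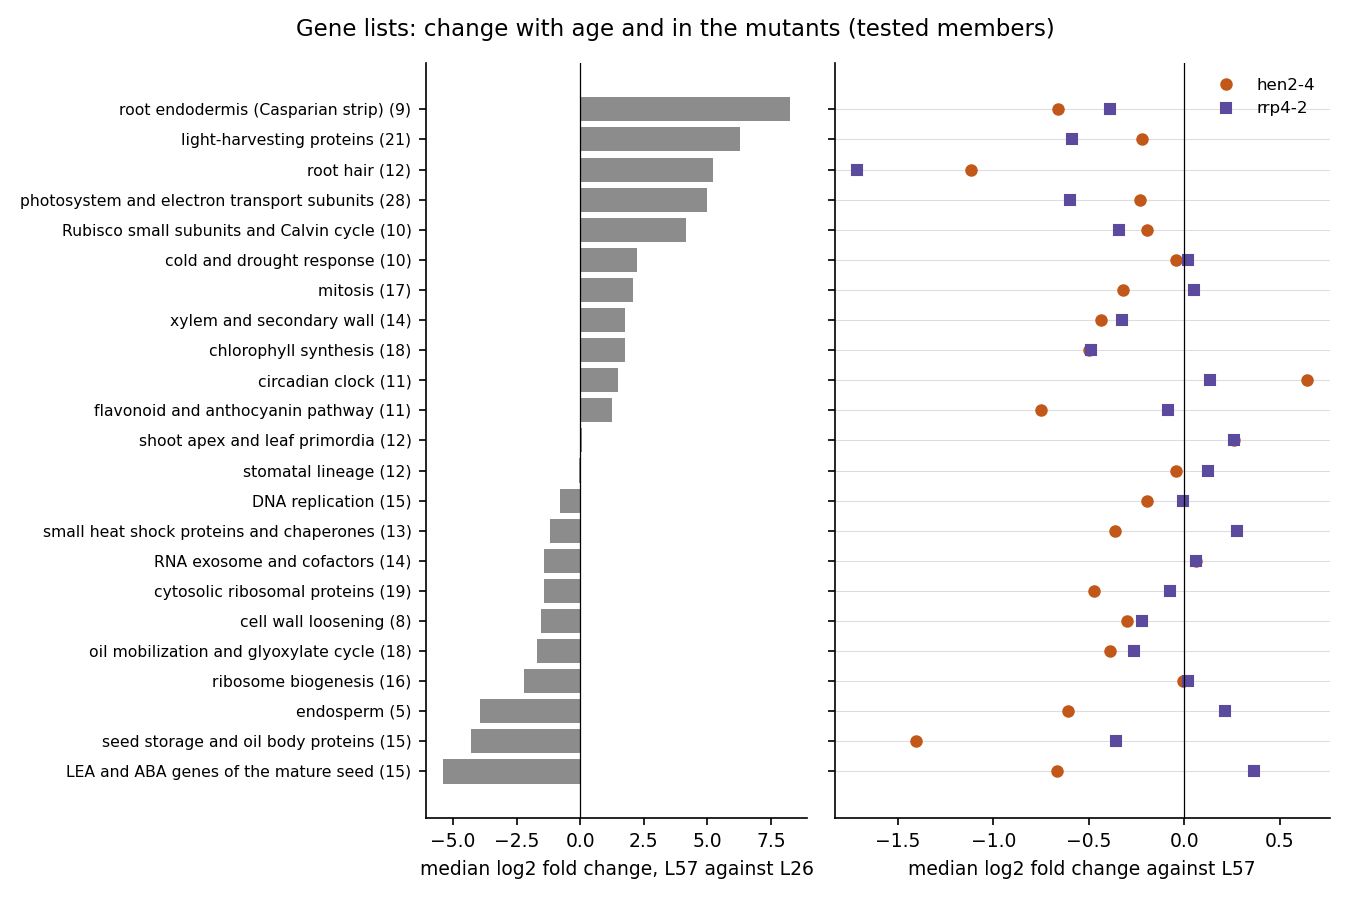
Median log2 fold change of each gene list (number tested in parentheses) from L26 to L57 (left, bars) and of hen2-4 (circles) and rrp4-2 (squares) against L57 (right). Lists that rose with age lie at the top. Root hair genes had medians of -1.12 in hen2-4 and -1.71 in rrp4-2, and seed storage and oil body genes, which fell with age, -1.41 in hen2-4 and -0.36 in rrp4-2. The age medians of the endodermis and of the cold and drought lists, 8.24 and 2.25, are the same with genes at 0 in a group set to the bound given by 3 counts per library, and the cold and drought median of rrp4-2 then becomes -0.02.

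Several lists that fell with age were lower still in the mutants, that is on the older side. Malate synthase and isocitrate lyase run the glyoxylate cycle that turns seed oil into sugar, and 17 of 18 genes of oil mobilization fell from L26 to L57. In the mutants 11 were lower than in L57 and 2 higher, with medians of -0.39 in hen2-4 and -0.26 in rrp4-2. The malate synthase gene MLS measured 3317 and 2956 CPM at L26, then 264 and 212 at L57, 37.2 and 38.6 with hen2-4 and 102 and 82.0 with rrp4-2 (log2 -2.01 ± 0.11 (SE), edgeR adjusted p = 1.07e-07). ICL, the isocitrate lyase named after its values were seen, measured 13291 and 11342 CPM at L26, then 1629 and 1332 at L57, 511 and 518 with hen2-4 and 765 and 679 with rrp4-2 (log2 -1.28 ± 0.12 (SE), edgeR adjusted p = 5.14e-06). MFP2, of peroxisomal fatty acid breakdown, measured 175 and 153 CPM in L57, 101 and 97.2 with hen2-4 and 121 and 111 with rrp4-2 (log2 -0.61 ± 0.08 (SE), edgeR adjusted p = 8.65e-05). All 4 mutant libraries lay below L57 for these 3 genes. PMDH2, the member that rose with age, measured 51.6 and 54.7 CPM in L26 and 459 and 549 CPM in L57, 533 and 561 with hen2-4 and 432 and 468 with rrp4-2 (log2 -0.02 ± 0.12 (SE), edgeR adjusted p = 0.951).

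Seed storage and oil body genes fell from L26 to L57 in 15 of 15, with a median of -4.30. In the mutants 10 were lower and 0 higher, and the lower count was 5 without L57 replicate 2. The median was -1.41 in hen2-4 and -0.36 in rrp4-2, and 8 of the genes were higher in rrp4-2 than in hen2-4 and 0 lower. SESA3, a seed storage albumin, measured 127 and 89.8 CPM at L26, then 1.97 and 5.63 at L57, 0.476 and 0.584 with hen2-4 and 1.19 and 1.08 with rrp4-2 (log2 -2.29 ± 0.33 (SE), edgeR adjusted p = 0.000198). OLEO2, an oleosin of the oil body, measured 74.7 and 46.9 CPM at L26, then 1.31 and 1.53 at L57, 0.76 and 1.61 with hen2-4 and 2.87 and 2.06 with rrp4-2 (log2 0.26 ± 0.30 (SE), edgeR adjusted p = 0.566). LEA and abscisic acid genes of the mature seed fell in 13 of 15, and 2 were higher and 2 lower in the pooled mutants. In hen2-4 2 were higher than in L57 and 3 lower, where 14.7% and 14.2% of all loci were called. In rrp4-2 6 were higher and 1 lower, where 12.0% and 13.2% of all loci were called. Between the mutants, 6 were higher and 0 lower in rrp4-2 than in hen2-4. LEA18 measured 2.00 and 3.2 CPM in L57, 0.94 and 2.12 with hen2-4 and 5.71 and 5.8 with rrp4-2 and was above L57 in rrp4-2 only (log2 1.91 ± 0.28 (SE), edgeR adjusted p = 0.000838 between the mutants). ABI4, a transcription factor of the seed, measured 62.7 and 55.9 CPM at L26, then 0.804 and 0.881 at L57, 0.102 and 0.0662 with hen2-4 and 0.5 and 0.466 with rrp4-2 (log2 -2.06 ± 0.16 (SE), edgeR adjusted p = 1.87e-06). Of 5 tested endosperm genes 1 was lower, EPR1, at 0.685 and 0.824 CPM in L57, 0.211 and 0.349 with hen2-4 and 0.21 and 0.259 with rrp4-2 (log2 -1.55 ± 0.39 (SE), edgeR adjusted p = 0.00834).

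Growth machinery gave a mixed picture. Cytosolic ribosomal protein genes fell with age in 19 of 19 and were lower in the mutants in 15, 8 without L57 replicate 1 and 7 without replicate 2. In hen2-4 alone 17 were lower and in rrp4-2 alone 2, with medians of -0.47 in hen2-4 and -0.08 in rrp4-2. RPL23AB, a protein of the large subunit, measured 336 and 342 CPM at L26, then 98.7 and 93.1 at L57, 58.9 and 64.6 with hen2-4 and 89.2 and 84.6 with rrp4-2 (log2 -0.64 ± 0.07 (SE), edgeR adjusted p = 1.87e-05 in hen2-4, and log2 -0.14 ± 0.07 (SE), edgeR adjusted p = 0.145 in rrp4-2). The mutants differed (log2 0.49 ± 0.07 (SE), edgeR adjusted p = 0.000482). Genes of ribosome biogenesis fell with age in 16 of 16, and 3 were higher and 3 lower in the mutants. Over all loci 14.8% were higher and 15.9% lower, which is the background for the pooled counts of this paragraph. NAP57, the pseudouridine synthase of the nucleolus, measured 265 and 227 CPM at L26, then 45.9 and 38.3 at L57, 39.9 and 40.9 with hen2-4 and 43.7 and 48.8 with rrp4-2 (log2 0.04 ± 0.09 (SE), edgeR adjusted p = 0.806). The 57 h groups overlapped. Without L57 replicate 1 the lower count of this list was 0, and without replicate 2 the higher count was 1. DNA replication genes fell in 13 of 15, and 3 were lower in the mutants. That count was 0 with all features in the scaling and without L57 replicate 1, L57 replicate 2, hen2-4 replicate 1 or rrp4-2 replicate 2, and 1 without hen2-4 replicate 2. PCNA1, the clamp of the replication fork, measured 15.8 and 14.8 CPM in L57, 10.9 and 12.0 with hen2-4 and 14.3 and 13.1 with rrp4-2 (log2 -0.29 ± 0.08 (SE), edgeR adjusted p = 0.0169). Of 13 heat shock proteins 1 was higher and 4 lower, the latter 2 without L57 replicate 1 or with all features in the scaling. Of 8 wall-loosening genes 1 was higher and 3 lower, the latter 0 without L57 replicate 1. In the pooled mutants the medians of the LEA, heat shock, ribosome biogenesis, stomatal and exosome lists lay near 0 and changed sign with the scaling. Taken singly, the LEA list had medians of -0.67 in hen2-4 and 0.36 in rrp4-2, and the heat shock list -0.36 in hen2-4 and 0.28 in rrp4-2.

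Clock genes differed from L57 in both directions. The clock of Arabidopsis cycles between morning factors such as CCA1 and LHY and afternoon or evening factors such as PRR5, GI, TOC1 and PCL1, which repress one another. The evening element in the promoters of evening genes is a site that CCA1 and LHY bind. CCA1 rose with age and was then lower in the mutants, at 12.6 and 15.65 CPM at L26, then 76.2 and 82.0 at L57, 27.0 and 24.21 with hen2-4 and 31.3 and 28.1 with rrp4-2 (log2 -1.52 ± 0.09 (SE), edgeR adjusted p = 2.67e-07). LHY measured 126 and 130.0 CPM in L57, 28.9 and 29.5 with hen2-4 and 38.8 and 33.5 with rrp4-2 (log2 -1.98 ± 0.10 (SE), edgeR adjusted p = 9.37e-08), and RVE8 27.2 and 25.2 CPM in L57, 8.95 and 7.43 with hen2-4 and 16.3 and 14.1 with rrp4-2 (log2 -1.23 ± 0.08 (SE), edgeR adjusted p = 6.05e-07). TOC1 measured 42.7 and 38.5 CPM at L26, then 48.6 and 51.3 at L57, 139.9 and 149 with hen2-4 and 95.9 and 107 with rrp4-2 (log2 1.28 ± 0.10 (SE), edgeR adjusted p = 1.15e-06), and PCL1, also called LUX, 30.6 and 31.9 CPM in L57, 71.9 and 73.5 with hen2-4 and 61.3 and 67.8 with rrp4-2 (log2 1.13 ± 0.08 (SE), edgeR adjusted p = 4.76e-07). GI measured 56.5 and 64.8 CPM in L57, 141 and 142 with hen2-4 and 118 and 107 with rrp4-2 (log2 1.06 ± 0.08 (SE), edgeR adjusted p = 1.02e-06). CCA1, LHY and RVE8 were lower and TOC1, PCL1 and GI higher in all 4 mutant libraries than in either L57 library. Apart from PRR5 below, the levels of the other clock genes, PRR7 among them, are not given here. LHY, RVE8, TOC1, PCL1 and GI were named after their values were seen. PRR5 differed between the mutants, at 4.94 and 4.27 CPM at L26, then 16.5 and 20.4 at L57, 75.6 and 80.5 with hen2-4 and 21.4 and 23.64 with rrp4-2 (log2 -1.79 ± 0.11 (SE), edgeR adjusted p = 2.19e-06). Of 11 clock genes 6 were higher and 3 lower in the pooled mutants. The counts were the same without L57 replicate 1 and without L57 replicate 2. No source used here gives the hour of collection, and its part in these values was not tested.

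Promoter sequences of the evening genes TOC1, PCL1 and PRR5 and of the morning gene CCA1 are shown as examples from the 11 clock genes. The mutants were above L57 for the first 3 and below it for CCA1. GI, LHY and RVE8, which also differed from L57, are not shown. The sequences shown therefore do not relate a motif to the direction of change. The windows run from 250 bases before to 50 bases after the annotated gene start in the RefSeq TAIR10.1 assembly and are written 5′ to 3′ on the strand of the gene. Capitals mark matches, on either strand, to the evening element AAAATATCT, the G-box CACGTG, the I-box GATAAG or the telo box AAACCCTA. The windows are chr5:24674713-24675012, plus strand for TOC1, chr3:17182792-17183091, plus strand for PCL1, chr5:8358497-8358796, minus strand for PRR5 and chr2:19245341-19245640, plus strand for CCA1.
TOC1: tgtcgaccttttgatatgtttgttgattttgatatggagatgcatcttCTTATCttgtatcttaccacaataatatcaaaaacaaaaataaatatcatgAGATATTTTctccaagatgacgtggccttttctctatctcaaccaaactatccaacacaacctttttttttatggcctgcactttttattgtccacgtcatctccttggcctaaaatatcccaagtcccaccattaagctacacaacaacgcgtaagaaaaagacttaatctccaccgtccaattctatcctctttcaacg
PCL1: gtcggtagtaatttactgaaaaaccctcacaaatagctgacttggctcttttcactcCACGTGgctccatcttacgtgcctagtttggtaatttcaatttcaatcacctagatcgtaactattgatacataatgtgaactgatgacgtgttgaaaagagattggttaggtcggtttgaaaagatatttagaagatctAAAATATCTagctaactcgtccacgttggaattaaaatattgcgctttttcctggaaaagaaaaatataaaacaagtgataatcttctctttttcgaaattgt
PRR5: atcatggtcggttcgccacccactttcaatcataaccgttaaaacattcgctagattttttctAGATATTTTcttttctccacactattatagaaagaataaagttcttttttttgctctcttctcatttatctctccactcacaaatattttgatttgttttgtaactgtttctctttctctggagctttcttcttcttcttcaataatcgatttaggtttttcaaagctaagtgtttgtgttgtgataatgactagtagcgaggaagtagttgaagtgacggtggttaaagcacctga
CCA1: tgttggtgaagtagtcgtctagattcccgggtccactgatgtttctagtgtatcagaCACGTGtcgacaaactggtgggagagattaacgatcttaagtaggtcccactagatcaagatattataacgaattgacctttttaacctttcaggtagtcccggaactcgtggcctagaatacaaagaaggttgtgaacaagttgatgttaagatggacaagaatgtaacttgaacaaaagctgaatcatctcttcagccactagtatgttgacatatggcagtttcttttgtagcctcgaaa
TOC1, PCL1 and PRR5 each hold the evening element, CCA1 and PCL1 hold a G-box, and TOC1 also holds an I-box. In all, 4 of 11 clock promoters held the evening element, against 2.75% of all 25904 promoters of tested loci.

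Motif shares were also taken over the age loci. The telo box, found in promoters of ribosome genes, stood in 13.5% of falling and 2.63% of rising loci, against 6.06% of all. It stood in 10 of 19 ribosomal protein and 9 of 16 ribosome biogenesis promoters. The I-box of light-regulated genes stood in 17.1% of rising, 14.3% of falling and 14.9% of all loci, and in 15 of 28 photosystem promoters. The G-box stood in 7.88% of rising, 9.73% of falling and 7.91% of all, and in 7 of 15 seed storage and oil body promoters. The evening element stood in 3.28% of rising and 2.54% of falling loci. A match is a run of letters and not a shown binding site, and these shares were not tested.

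Among age loci called the same way with each L57 library, with no overlap between mutants and L57 and a mean of at least 10 CPM in L26, L57 or the mutants, 516 lay towards L26 and 579 away from it. The limit on level could be met in the mutants alone, as at AT1G06537. These values chose the loci named next and are a description. Of the 5 largest shifts towards L26, 4 did not code for a protein. AT1G06537, a lncRNA, measured 2.16 and 3.6 CPM at L26, then 1.04 and 0.767 at L57, 31.5 and 35.8 with hen2-4 and 21.9 and 21.9 with rrp4-2. AT1G05913, a lncRNA as well, measured 7.11 and 9.1 CPM at L26, then 1.59 and 1.26 at L57, 23.2 and 23.5 with hen2-4 and 9.3 and 10.5 with rrp4-2. For AT3G04775, of the same kind, the values were 14.3 and 16.4 CPM at L26, then 2.87 and 2.53 at L57, 29.7 and 32.9 with hen2-4 and 14.2 and 18.0 with rrp4-2. All 4 mutant libraries exceeded L57 at these loci and, for AT1G06537 and AT1G05913, also L26. AT1G16635 measured 19.6 and 23.5 CPM at L26, then 3.52 and 2.84 at L57, 32.7 and 33.2 with hen2-4 and 17.8 and 20.2 with rrp4-2. FRO4, a ferric reductase and the only protein-coding locus of the 5, had 0 and 0.0323 CPM in L26 and 17.7 and 18.4 CPM in L57, 0.5 and 0.825 with hen2-4 and 3.4 and 4.03 with rrp4-2.

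Of the 5 largest shifts away from L26, MRD1 measured 32.4 and 31.9 CPM at L26, then 14.3 and 13.3 at L57, 0.00603 and 0 with hen2-4 and 0.0185 and 0.0354 with rrp4-2, so that it was all but absent from both mutants and no fold change is given. BGLU4, a beta-glucosidase, fell with age and further in the mutants, from 115 and 119.6 CPM in L26 to 8.55 and 6.12 at L57, with 0.398 and 0.458 for hen2-4 and 1.64 and 1.04 for rrp4-2. AT3G58060, of the cation efflux family, measured 1.31 and 1.25 CPM in L57, 0.127 and 0.132 with hen2-4 and 0.259 and 0.136 with rrp4-2, from 11.6 and 10.9 in L26. RLP19, a receptor-like protein, measured 0 and 0.0323 CPM at L26, then 0.641 and 0.583 at L57, 15.6 and 18.9 with hen2-4 and 4.99 and 7.53 with rrp4-2. AT2G04050, of the MATE transporter family, measured 0.297 and 0.25 CPM at L26, then 1.42 and 1.53 at L57, 20.105 and 34.2 with hen2-4 and 6.25 and 4.39 with rrp4-2. The selection required that mutants and L57 did not overlap.

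Loci without a change from L26 to L57 also differed in the mutants, 379 higher and 365 lower under the same limits on level and overlap. The limit on level could be met in the mutants alone, as at AT4G31408, AT4G31351 and DREB2C. The number of loci without a change is not given here, so these counts are a description and not a share. AT4G31408, a non-coding locus, measured 4.08 and 5.1 CPM at L26, then 4.07 and 4.12 at L57, 34.2 and 34.1 with hen2-4 and 58.2 and 56.9 with rrp4-2, and AT4G31351 measured 1.34 and 1.18 CPM in L57, 12.4 and 11.4 with hen2-4 and 21.7 and 18.22 with rrp4-2. DREB2C, a transcription factor of heat and drought responses, measured 2.09 and 1.5 CPM at L26, then 1.82 and 2.47 at L57, 15.9 and 17.9 with hen2-4 and 10.7 and 9.97 with rrp4-2. ELIP1, which protects the photosystems from excess light, measured 149 and 165 CPM at L26, then 214 and 161 at L57, 25.3 and 26.9 with hen2-4 and 111 and 74.7 with rrp4-2 and was lower in every mutant library. FSD2, a superoxide dismutase of the plastid, measured 58.3 and 59.9 CPM at L26, then 56.5 and 49.0 at L57, 17.8 and 14.5 with hen2-4 and 30.7 and 28.9 with rrp4-2, and ERD9, a glutathione transferase, 18.8 and 21.7 CPM at L26, then 25.9 and 21.4 at L57, 6.89 and 6.26 with hen2-4 and 16.6 and 15.0 with rrp4-2. U1.2, a spliceosomal RNA gene, was 4.87 and 31.3 CPM in the L57 replicates, 0.977 and 1.93 in hen2-4 and 3.55 and 0.69 in rrp4-2, and has near-identical copies.

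**Figure D5:**
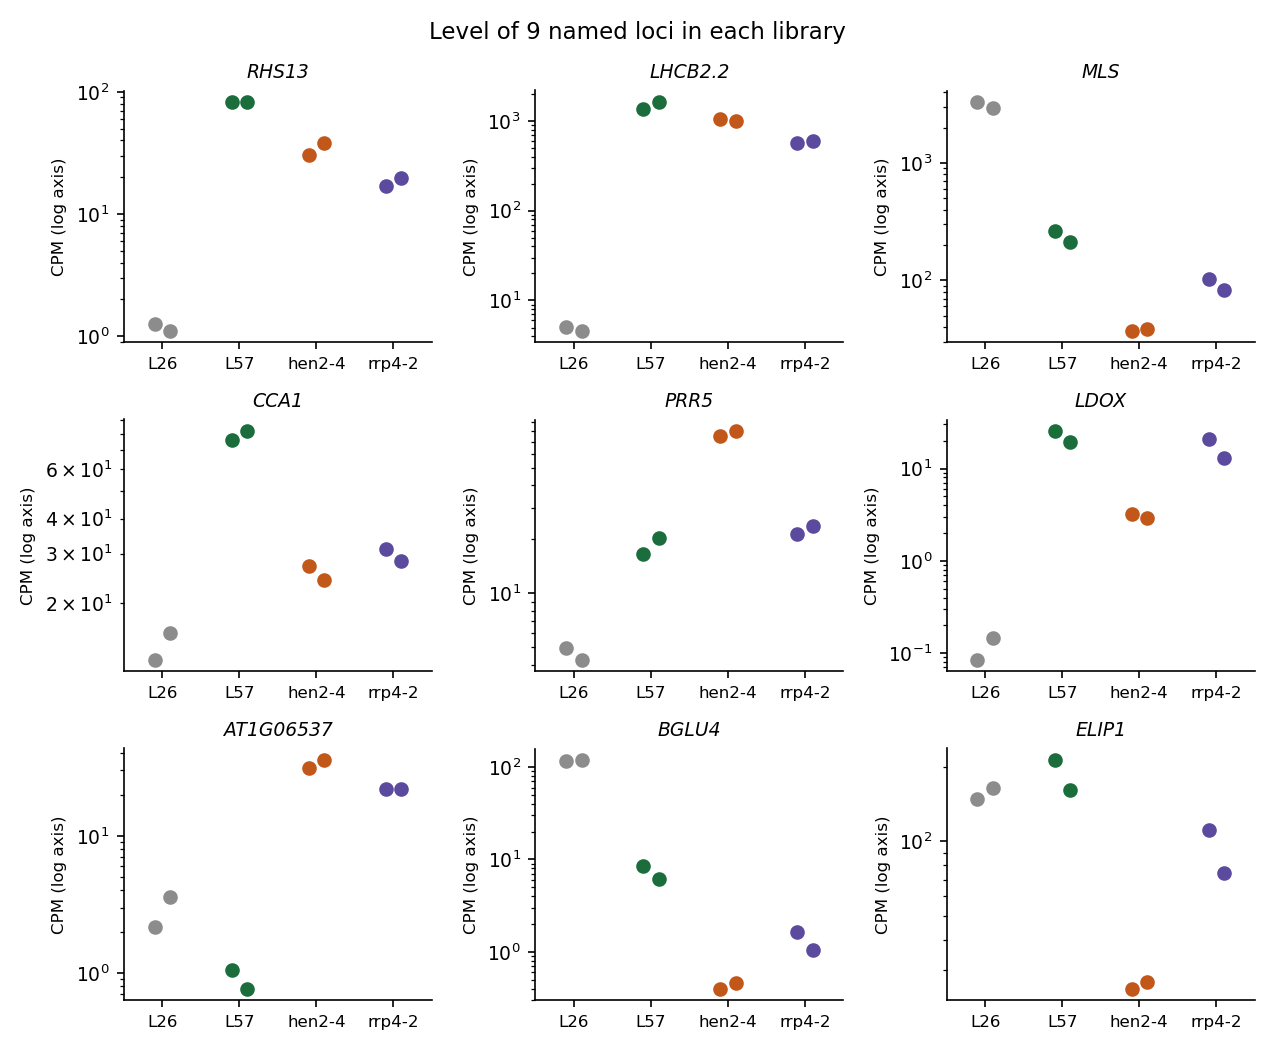
Level (CPM, log axis) of 9 named loci in each library of L26, L57, hen2-4 and rrp4-2. RHS13, LHCB2.2 and CCA1 lie between L26 and L57 in the mutants, MLS and BGLU4 lie beyond L57, and AT1G06537 lies above both. All of these loci except CCA1 differed between hen2-4 and rrp4-2 (edgeR adjusted p under 0.05).

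The mutants differed from each other at 2773 loci (10.7%), 1286 higher in rrp4-2 (4.96%) and 1487 higher in hen2-4 (5.74%). The count was 1475 and 1390 without hen2-4 replicates 1 and 2, 1223 without rrp4-2 replicate 1, and 5017 with the DESeq2 Wald test. Many photosynthesis genes were lower in rrp4-2 than in hen2-4, with 9 of 21 light-harvesting and 12 of 28 photosystem genes lower and 1 and 0 higher. Ribosomal protein genes were higher in rrp4-2 in 15 of 19. The anthocyanin pathway, which colours young cotyledons, differed too. Of its 11 genes 8 rose from L26 to L57, 8 were lower in hen2-4 and 1 in rrp4-2, and 7 were higher in rrp4-2 than in hen2-4. In the pooled mutants 5 were lower, and 2 without L57 replicate 1. LDOX, which makes the coloured anthocyanidins, measured 0.0849 and 0.145 CPM at L26, then 25.5 and 19.2 at L57, 3.19 and 2.91 with hen2-4 and 20.8 and 13.0 with rrp4-2 (log2 2.47 ± 0.33 (SE), edgeR adjusted p = 0.000585 between the mutants). DFR, the step before it, measured 26.5 and 17.61 CPM in L57, 2.15 and 2.26 with hen2-4 and 14.0 and 10.6 with rrp4-2 (log2 2.48 ± 0.35 (SE), edgeR adjusted p = 0.00127). TT4, the chalcone synthase at the head of the pathway, measured 289 and 238 CPM in L57, 160.2 and 177 with hen2-4 and 334 and 305 with rrp4-2 and lay below L57 in hen2-4 and above it in rrp4-2 (log2 0.92 ± 0.10 (SE), edgeR adjusted p = 9.09e-05). Cold and drought genes were higher in 3 and lower in 2 of 10 in the pooled mutants, the former 0 without L57 replicate 1, and ERD10, a dehydrin, measured 47.0 and 54.5 CPM in L57, 80.1 and 85.9 with hen2-4 and 45.3 and 58.8 with rrp4-2 (log2 -0.67 ± 0.12 (SE), edgeR adjusted p = 0.0031). CLV1, a receptor kinase of the shoot meristem, rose from 9.38 and 9.09 CPM in L26 and measured 72.8 and 82.2 CPM in L57, 108 and 115 with hen2-4 and 61.7 and 67.7 with rrp4-2 (log2 -0.78 ± 0.08 (SE), edgeR adjusted p = 5.62e-05).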

How the data were processed

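Total RNA was depleted of rRNA, sequenced paired-end from stranded libraries and processed by the authors with STAR 2.7.9a, which placed multi-mapping reads at 1 random site, and StringTie 2.1.4 on Araport11 with de novo transcripts. The authors deposited estimated counts per transcript, which are not read tallies, and TPM, whose normalization keeps no depth. The deposited TPM served only as a check that each of the 16 count columns matched the TPM column of its own sample best. The count column read as rrp4-2 replicate 1 has a misspelt name. Members and gene lists were chosen with earlier results of these data known.

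Estimated counts were rounded and summed over the AT1G to AT5G loci. All 16 libraries (8 groups, 8 residual degrees of freedom) were fitted with edgeR 4.0.16 quasi-likelihood tests in R 4.3.3, with TMM scaling and filterByExpr, and p-values were adjusted over all tested loci by Benjamini-Hochberg with a threshold of 0.05. The pooled mutants are the mean of both mutant coefficients. Positions used log2 CPM with a prior count of 2. DESeq2 1.42.0 served as an alternative. Figures and motif searches used Python 3.11.15 with pandas 2.3.3 and matplotlib 3.10.9. Symbols, biotypes and promoters came from RefSeq TAIR10.1, whose nuclear chromosomes have the lengths of TAIR10, and all 324 list genes matched, of which 323 were tested. The scripts were tested on simulated data.

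Named genes were HEN2 and RRP4, up to 3 members of each list with the largest change from L26 to L57 among those called there with at least 10 CPM, the 5 age loci with the largest shift each way in the mutants, called with each L57 library, without overlap and with a mean of at least 10 CPM in L26, L57 or the mutants, and the 5 largest rises and falls under the same limits among loci not called from L26 to L57 with an absolute log2 fold change under 0.5. Others are marked in the text. Alternatives were other scalings, filters, prior counts, loci and tools, mutant counts thinned to the depth of L57, a replicate block and each library left out.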

Additional observations from a re-analysis of the deposited data

Results flagged for a closer look

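For 40 of the named genes the effect of hen2-4 and that of rrp4-2 differed by a test of the difference itself (edgeR adjusted p under 0.05). Some named genes were chosen by their values in these mutants. Their number therefore cannot be compared with the 10.7% of all loci that passed. The log2 fold change of rrp4-2 against hen2-4 was positive for ABI4 (2.50), FRO4 (2.49), DFR (2.48), LDOX (2.47), LEA18 (1.91), ELIP1 (1.83), BGLU4 (1.64), LTI65 (1.41), LEA4-5 (1.404), SESA2 (1.35), MLS (1.28), ERD9 (1.26), OLEO2 (1.05), EXPA10 (0.97), TT4 (0.92), FSD2 (0.88), XTH5 (0.78), AT4G31408 (0.75), AT4G31351 (0.74), HSP90.1 (0.70), AT1G70600 (0.54), RPL23AB (0.49) and RPL23AA (0.47). It was negative for AT2G04050 (-2.35), HEN2 (-1.89), PRR5 (-1.79), AT1G05913 (-1.24), AT2G15880 (-1.05), AT3G04775 (-0.96), RHS13 (-0.91), LHB1B1 (-0.88), LHCB2.2 (-0.82), AT1G16635 (-0.79), PRR7 (-0.79), CLV1 (-0.78), DREB2C (-0.71), ERD10 (-0.67), PSAO (-0.66), AT1G06537 (-0.62) and PSAK (-0.31).

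Transcripts outside the nuclear loci also stood above L57 in every mutant library. The lowest mutant library had 46.6% of all counts in chloroplast transcripts, against 41.2% and 43.4% in L57. The lowest share of mitochondrial transcripts in a mutant was 0.0778%, against 0.0671% and 0.061% in L57. That of de novo transcripts was 0.104%, against 0.0425% and 0.04%.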

How the results depend on the processing

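Leaving out each library in turn gave 4663 to 7605 loci for the pooled mutants against L57, 4723 to 7157 for hen2-4, 3795 to 6165 for rrp4-2 and 1223 to 2602 between the mutants. With fewer libraries fewer loci pass, and a lone library was assumed to vary like the other groups. The position difference of hen2-4 ranged from -0.00382 to 0.00271, and the L6 to L26 medians from -0.17 to -0.085 for rising and 0.22 to 0.35 for falling loci. Split-control counts and position differences without an L57 library could not be had, since each comparison needs both.

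With a log2 limit of 2, rising loci were 291 lower and 160 higher, and falling loci 133 lower and 148 higher, as fewer age loci passed. In a fit of the 8 libraries alone, rising loci were 899 lower and 474 higher. DESeq2 size factors gave 805 rising loci that were lower and moved the L6 to L26 medians to -0.20 and 0.21. A limit of 2 moved the falling median to 0.33. Falling loci that were higher numbered 558 with all features in the fit and 192 with protein-coding loci only. The DESeq2 Wald test called 5017 loci between the mutants. The median of all loci from L26 to L57 moved to 0.11 with DESeq2 size factors and -0.11 with all features. The cause of the other moves was not tested.

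The hen2-4 position difference became 0.00144 with a prior count of 5, 0.00775 with protein-coding loci, 0.0277 with loci of at least 10 CPM, 0.0452 with scaled loci, 2.98e-05 with thinned libraries and -0.0274 on the L6 axis. Scaled loci turned the pooled difference to 0.0238 and that of rrp4-2 to 0.00247.

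A replicate block gave 7573 calls for the pooled mutants, 7102 for hen2-4, 6148 for rrp4-2 and 2607 between the mutants. The numbers did not pair the samples, as deviations of same-numbered libraries correlated at -0.0525 to 0.0863 over 28 pairs of groups.

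Of the settings run for named genes, 2640 kept direction and side of the threshold, 95 lost a call and 41 gained one, and 40 turned a log2 fold change that was not called. These were PMDH2 0.041, IRX12 0.040, KNAT1 0.0067, XTH4 0.055 with all features in the fit (mutants), then NAP57 -0.013, LTI30 -0.0014 with DESeq2 size factors in edgeR (mutants), then AT4G31408 0.038, AT5G35935 0.080, AT5G35940 0.070, FSD2 0.040 with DESeq2 size factors in edgeR (L26 to L57), then NAP57 -0.013, LTI30 -0.0014 with DESeq2 Wald test (mutants), then AT4G31408 0.038, AT5G35935 0.081, AT5G35940 0.070, FSD2 0.040 with DESeq2 Wald test (L26 to L57). Over the left-out libraries the ranges of such genes were OLEO2 -0.057 to 0.49, LEA18 -0.16 to 0.64, PMDH2 -0.15 to 0.18, AT5G27120 -0.23 to 0.099, NAP57 -0.015 to 0.18, LHB1B1 -0.24 to 0.065, GUN5 -0.15 to 0.054, IRX12 -0.059 to 0.078, XCP2 -0.16 to 0.014, KNAT1 -0.10 to 0.038, EXPA2 -0.71 to 0.13, MAN7 -0.036 to 0.38, XTH4 -0.12 to 0.17, LTI65 -0.0058 to 0.79, LTI30 -0.045 to 0.14, AT4G31408 -0.32 to 0.0034 (L26 to L57), DREB2C -0.039 to 0.52 (L26 to L57), U1.2 -1.75 to 1.00 (L26 to L57).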

Other observations

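Among snoRNA and lncRNA loci, those called in the mutants were mostly higher than in L57. Of 243 tested snoRNA genes, whose products guide the modification of rRNA, 204 fell from L26 to L57 and 0 rose, with a median log2 fold change of -1.75. In the pooled mutants 137 were higher than in L57 and 18 lower, with medians of 1.25 in hen2-4 and 1.00 in rrp4-2. Of 1042 tested lncRNA loci, 191 fell with age and 89 rose, and 258 were higher and 15 lower in the mutants while 769 were called neither way, with medians of 1.23 in hen2-4 and 1.25 in rrp4-2. Of 1096 tested pseudogenes 81 were higher and 8 lower, with medians of 0.00 in hen2-4 and 0.00 in rrp4-2. Of 22840 protein-coding loci 3222 were higher and 4041 lower.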
